A study of Mus musculus with 12 samples.

Results

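Tumours of mice that received an antibody to B7-H3 together with an antibody to PD1 were compared with tumours of mice that received anti-PD1 alone. The combination group and the anti-PD1 group hold 3 libraries each, so 6 of the 12 libraries of the series enter the comparison, and the isotype control IgG and anti-B7-H3 groups (3 libraries each) share the estimate of spread and are given as levels beside a few results. All tumours were grown under the skin of C57BL/6J mice with intact immune systems from YUMM2.1, a line derived from a melanoma of a genetically engineered mouse, and treatment began at a tumour volume of 20 to 50 mm3. The antibody clones, doses and time of harvest, and the age and sex of the mice, were not given in the labels, and all tumours come from 1 line. The comparison takes in every gene of the deposited tables except 12 satellite-like genes, that is 22183 of 22195 genes. RNA was taken from whole tumours, so fewer cells of a type and less RNA per cell cannot be told apart.

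PD1, encoded by Pdcd1, is an inhibitory receptor on activated T cells, and tumour and myeloid cells engage it through PD-L1 (Cd274) and PD-L2 (Pdcd1lg2). Antibodies to PD1 block that contact and can release T cells that already recognise a tumour. B7-H3, encoded by Cd276, is a surface protein of the same B7 family that many tumours carry, along with stromal and myeloid cells, and it has been described as a brake on T and natural killer cells through a receptor that is not settled. The purpose given for the series was to learn which immune cells infiltrate the tumours under each treatment.

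The libraries of the groups differed before any gene was compared. Total reads per library were 4409772 to 5014931 in the combination group and 8099713 to 10527704 in the anti-PD1 group. The 12 satellite-like genes, which hold repeated sequence, took 30.1% to 34.0% of matched reads in combination libraries and 68.7% to 74.5% in anti-PD1 libraries, and they were left out of every total below. That left 2902813 to 3493133 reads of other genes in combination libraries and 2530099 to 2793362 in anti-PD1 libraries. Olfactory receptor genes, which are silent in most tissues outside the nose, held 0.626 to 0.710 reads per kb of coding length in combination libraries and 5.06 to 5.54 in anti-PD1 libraries. At that rate, reads spread over all coding sequence, called background here, would make up 0.726% to 0.771% of the other reads in combination libraries and 6.48% to 7.39% in anti-PD1 libraries. The plot of library composition shows that both measures separate the groups without overlap, so the treatment and these differences between libraries cannot be told apart. Libraries of the same group differed little more than counting noise: median chi-squares were 0.547 to 0.576 between combination libraries and 0.619 to 0.634 between anti-PD1 libraries, with 0.455 for noise alone and 3.34 to 4.03 between the groups. The labels do not say that each library came from its own mouse, so the p-values measure the spread between these libraries, which may be technical.

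**Figure D1:**
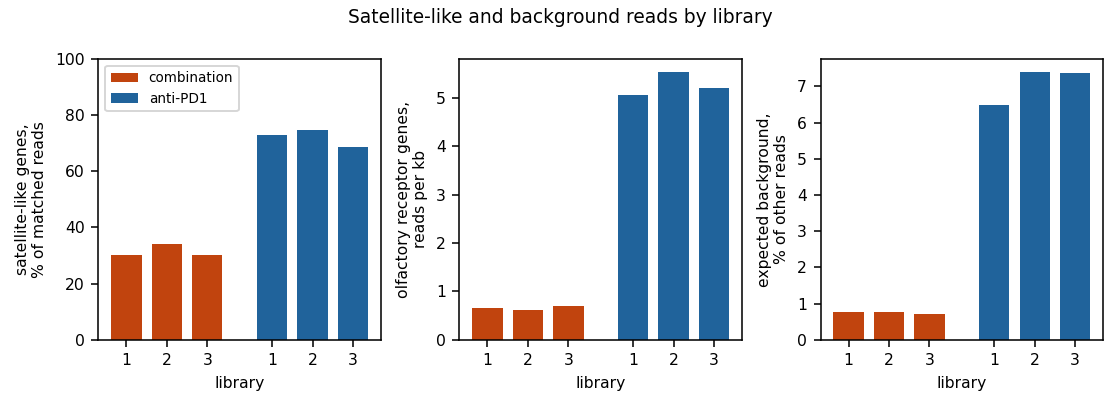
Share of matched reads in the 12 satellite-like genes (percent, left), olfactory receptor reads per kb of coding length (middle) and expected background as a percent of reads outside the satellite-like genes (right), with 1 bar per library. The 3 combination libraries lie between 30.1% and 34.0% satellite-like reads and the 3 anti-PD1 libraries between 68.7% and 74.5%.

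Expression was tested for 16088 genes. Levels are given per library as CPM, estimated counts per 1e6 reads outside the satellite-like genes after scaling, and fold changes as log2 of combination over anti-PD1 with their standard error. A gene was called when its adjusted p from edgeR's quasi-likelihood test was under 0.05 and its higher group held at least 3 times the reads expected from background. By this rule 3957 genes (24.6%) rose and 1696 (10.5%) fell in combination tumours, 35.1% of genes in all, and 70.0% of calls were upward. Every combination library lay above every anti-PD1 library for 27.3% of genes tested, and below for 33.7%. Called rises had a median log2 fold change of 0.58, and 837 of them were at least 2-fold; called falls had a median of -0.60, and 504 were at least 2-fold. A further 3431 genes had an adjusted p under 0.05 and lower levels in the combination group but held under 3 times background in the anti-PD1 group, and these were not called. Genes that rose needed no reads beyond background in the anti-PD1 group, so where they had none the fold change printed rests on background there, and the value with background subtracted, where one could be fitted, is given with it. The split depends on scaling: with scaling factors taken only over genes at least 10 times above background, the median log2 fold change of all genes shifted to -0.24 from -0.06 and 2481 genes rose while 2877 fell (46.3% upward), and with DESeq2 size factors 3127 rose and 2270 fell (57.9% upward). Lists of genes are therefore described beside the median of all genes tested, -0.06, and the share of all genes called.

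The highest list medians were those of MHC class I presentation genes (1.77), cytotoxic effector genes (1.58), monocyte genes and alternatively activated macrophage genes (1.55 each), and the lowest those of keratinocyte genes (-3.12), red blood cell genes (-1.89) and mast cell genes (-1.67), as the plot of 41 gene lists shows. Medians with background subtracted, here and below, are taken over the members that could still be fitted. That fit held 12629 genes in all, against 16088. Members low in every group after subtraction dropped out, so these medians and their order cannot be set against the main ones. Cytotoxic effector genes (3.46, the value of Gzmb), B cell genes (2.94, that of Cd22) and skeletal muscle genes (2.21) lay highest among them. Keratinocyte, red blood cell and mast cell genes again lay lowest.

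**Figure D2:**
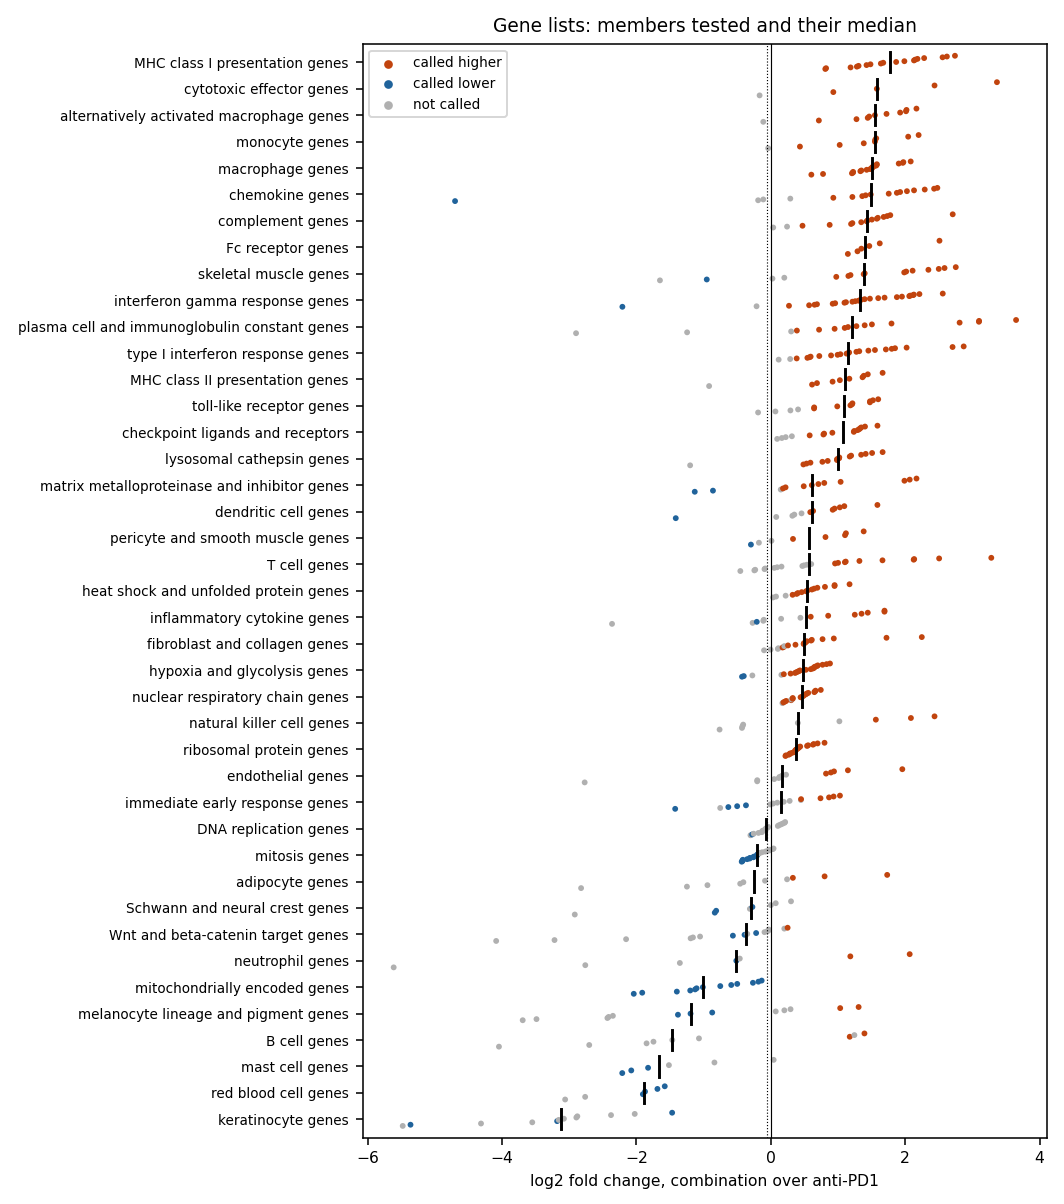
Log2 fold change (combination over anti-PD1, horizontal axis) of every tested member of 41 gene lists, coloured by call, with the list median as a black bar and the median of all genes tested, -0.06, as a dotted line. Medians run from 1.77 for MHC class I presentation genes to -3.12 for keratinocyte genes, of which 9 of 12 tested members lie under 3 times background in the anti-PD1 group.

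Of the genes the antibodies are aimed at, Cd276 did not change by the test. Cd276 (chr9:58524298-58555437, GRCm38) had 63.5, 65.4 and 57.7 CPM in combination libraries, against 64.8, 53.3 and 47.4 CPM in anti-PD1 libraries, and these ranges overlap. Its log2 fold change was 0.16 ± 0.1099 (adjusted p = 0.205, edgeR), and it was called only when anti-PD1 replicate 1 was left out (0.33, adjusted p = 0.0223), while its sign turned when background was subtracted (-0.09) and when scaling used genes well above background (-0.02). Pdcd1 (chr1:94038305-94052553) was sparse, with 36 reads in the combination group, against 9 in the anti-PD1 group, and 13.7 were expected from background in the anti-PD1 group. Its fold change of 1.59 ± 0.55 passed the test (adjusted p = 0.0111), but not under the DESeq2 Wald test (adjusted p = 0.0650), without combination replicate 3 (adjusted p = 0.0614) or without anti-PD1 replicate 2 (adjusted p = 0.0788). It became 2.52 without anti-PD1 replicate 1 and 3.17 with background subtracted, and the highest anti-PD1 library (2.09 CPM) lay above the lowest combination library (2.02 CPM).

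The ligands of PD1 were both higher in the combination group. Cd274 had 22.8, 23.3 and 23.9 CPM in combination libraries, against 9.06, 6.21 and 12.4 CPM in anti-PD1 libraries. Pdcd1lg2 had 19.7, 18.4 and 20.3 CPM in combination libraries, against 10.1, 7.57 and 5.83 CPM in anti-PD1 libraries. The groups did not overlap for either gene, and their log2 fold changes were 1.35 ± 0.191 for Cd274 and 1.29 ± 0.196 for Pdcd1lg2 (adjusted p = 9.13e-09 and 5.18e-08). Sirpa, which encodes the myeloid receptor that reads the "do not eat me" protein CD47, rose by 1.401 ± 0.0801, with 148, 147 and 133 CPM in combination libraries, against 51.1, 55.5 and 55.2 CPM in anti-PD1 libraries. Cd47 itself rose by 0.79 ± 0.0808. Of 16 tested genes for checkpoint ligands and receptors 12 rose and none fell (24.6% and 10.5% of all genes), and the list median was 1.07; Cd80, a ligand of CD28 and CTLA4, rose by 1.33 ± 0.272.

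Macrophage genes rose as a body. All 20 tested members were called higher, with a median of 1.503, and together they summed to 6201 ± 58.2 CPM in combination libraries and 2103 ± 52.4 CPM in anti-PD1 libraries (SD, n = 3 each). Mrc1, the mannose receptor CD206, had 1028, 1042 and 1029 CPM in combination libraries, against 256, 257 and 282 CPM in anti-PD1 libraries. Lyz2, lysozyme of macrophages and neutrophils, had 387, 418 and 388 CPM in combination libraries, against 95.1, 96.5 and 113 CPM in anti-PD1 libraries. No anti-PD1 library came near a combination library for either gene, and the fold changes were 1.96 ± 0.0567 for Mrc1 and 1.97 ± 0.0635 for Lyz2 (adjusted p = 2.10e-44 and 2.78e-41, edgeR). Tyrobp, the adaptor DAP12 that signals for many myeloid receptors, rose by 2.08 ± 0.124, and Msr1, a scavenger receptor, by 1.903 ± 0.119. Background subtraction left the list median at 1.29, and scaling over genes well above background left it at 1.32 with all 20 members still called.

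Genes of alternatively activated macrophages, the state tied to repair and to tumour support, were higher in 10 of 11 (median 1.55). Arg1, the arginase that depletes arginine around T cells, had 677, 683 and 695 CPM in combination libraries, against 166, 167 and 177 CPM in anti-PD1 libraries. Its fold change was 2.01 ± 0.0554. Clec10a, a lectin of macrophages and dendritic cells, rose by 2.17 ± 0.178, F13a1, a coagulation factor subunit made by tissue macrophages, by 2.02 ± 0.0732 and the eosinophil attractant Ccl24 by 1.92 ± 0.104. Monocyte genes were higher in 8 of 9 with a median of 1.55; the summed level of the list hardly differed, 10447 ± 70.7 CPM in combination libraries and 10434 ± 182 CPM in anti-PD1 libraries, because Fn1 (fibronectin, named here for its share of the sum), which many cell types express, took most of its reads and had a log2 fold change of -0.04. Plac8 rose by 2.199 ± 0.334. Ly6c2, the surface marker of inflammatory monocytes, had 3.6, 4.19 and 6.52 CPM in combination libraries, against 1.07, 2.78 and 0.8297 CPM in anti-PD1 libraries, a fold change of 1.57 ± 0.425 that became 2.35 without anti-PD1 replicate 2. Ms4a4c rose by 2.04 ± 0.552, but not without combination replicate 3 (1.35, adjusted p = 0.0720), and its 8 reads in the anti-PD1 group were no more than background.

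Granulocyte genes went both ways, and dendritic cell genes mostly rose. Of 7 tested neutrophil genes 2 rose and 1 fell (24.6% and 10.5% of all genes), and 3 were lower but under 3 times background in the anti-PD1 group. The median was -0.51, and 0.64 over the members still fitted with background subtracted. The 2 that rose were Mmp9, a gelatinase that macrophages also make (2.07 ± 0.0668), and Retnlg, a neutrophil resistin-like protein (1.18 ± 0.186). Csf3r, the receptor of granulocyte colony-stimulating factor, fell by 0.51 ± 0.189 (adjusted p = 0.0165), a call lost without combination replicate 1, combination replicate 2 or anti-PD1 replicate 3. Elane and Ngp, which mark young neutrophils, had 0 reads in combination libraries, but only 17 and 5 in the anti-PD1 group, where background gives 12.6 and 7.97, so neither was called and Ngp was too low to be tested. Of 12 dendritic cell genes 7 rose and 1 fell (median 0.61). Cd83, a surface protein of mature dendritic cells, rose by 1.59 ± 0.262 and the lectin gene Cd209a by 1.03 ± 0.327. Itgax (CD11c) had 192, 209 and 204 CPM in combination libraries, against 109, 91.97 and 113 CPM in anti-PD1 libraries, a fold change of 0.95 ± 0.0684. Clec9a, the marker of cross-presenting dendritic cells, fell by 1.42 ± 0.402, with 1.74, 2.15 and 2.57 CPM in combination libraries, against 7.32, 5.84 and 4.28 CPM in anti-PD1 libraries. It held 48 reads in the anti-PD1 group, where background gives 12.6, and was not called when 10 times background was required. Batf3, of the same list, rose by 1.09 ± 0.437. That call was lost without combination replicate 1, anti-PD1 replicate 2 or anti-PD1 replicate 3. A change in any subset of dendritic cells was not tested. Mast cell genes were called lower in 3 of 6 and higher in none (median -1.67): the tryptase Tpsb2 had 4.92, 5.52 and 2.32 CPM in combination libraries, against 24.05, 16.1 and 12.8 CPM in anti-PD1 libraries, and Cpa3, the mast cell carboxypeptidase, had 1.74, 3.07 and 1.54 CPM in combination libraries, against 8.71, 9.13 and 11.7 CPM in anti-PD1 libraries. For both genes every combination library stood below every anti-PD1 library, with fold changes of -2.08 ± 0.338 and -2.21 ± 0.372. The mast cell list held 257 reads in the combination group and 478 in the anti-PD1 group, where background gives 20.0 and 158. A further 1 of its members was lower but under 3 times background, and Cpa3 was not called when 10 times background was required.

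Complement, Fc receptor, chemokine and cytokine genes are expressed by myeloid cells among others, and the cells that made these transcripts were not tested. Complement genes rose in 14 of 16 (median 1.43), led by C3, the protein on which the cascade turns, with 681, 660.2 and 649 CPM in combination libraries, against 97.9, 107 and 99.9 CPM in anti-PD1 libraries. That is a fold change of 2.71 ± 0.06399 (adjusted p = 6.08e-50, edgeR). Cfp (properdin, which stabilises the alternative pathway) rose by 1.78 ± 0.0921, C5ar1, the receptor of the C5a fragment, by 1.73 ± 0.166, and Serping1, the inhibitor of C1, by 1.68 ± 0.102. All 6 genes for Fc receptors, through which cells bind antibody, rose (median 1.41). Fcgr4, the activating receptor for IgG2 antibodies, had 23.7, 19.03 and 18.5 CPM in combination libraries, against 3.48, 3.29 and 3.89 CPM in anti-PD1 libraries, a fold change of 2.51 ± 0.2404. The inhibitory receptor Fcgr2b rose by 1.46 ± 0.0626.

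Chemokine genes rose in 13 of 17 and fell in 1 (median 1.49). Ccl8, a monocyte attractant, had 383, 390.0 and 389.6 CPM in combination libraries, against 67.9, 74.2 and 66.5 CPM in anti-PD1 libraries, a fold change of 2.48 ± 0.0663. Ccl2, the main ligand of the monocyte receptor CCR2, rose by 2.29 ± 0.191, Ccl12 by 2.43 ± 0.319 and Ccl6 by 2.13 ± 0.0882. The exception was Ccl19, which draws T cells and dendritic cells through CCR7: 2 reads were counted in the combination group and 50 in the anti-PD1 group, a scaled level 32.4 times lower (95% counting interval 8.51 to 275), with a fitted log2 fold change of -4.699 that became -7.10 without combination replicate 2. Inflammatory cytokine genes rose in 7 of 14 and fell in 1 (median 0.52), with Il1rn, the antagonist of the interleukin-1 receptor, up 1.69 ± 0.249, Il1b up 1.35 ± 0.213 and Csf1, the growth factor of macrophages, up 1.44 ± 0.0937. Csf1 had 103, 125 and 125 CPM in combination libraries, against 44.95, 43.1 and 41.6 CPM in anti-PD1 libraries. Il33, an alarmin of stromal cells, fell by 0.21 ± 0.0925 (adjusted p = 0.0468), a call lost in each of 5 fits that left out a library, with anti-PD1 replicate 1 left out moving it most (-0.15). Toll-like receptor genes rose in 10 of 14 (median 1.09), among them Tlr7, a sensor of single-stranded RNA (1.597 ± 0.266), and its close relative Tlr8 (1.48 ± 0.158). Tlr7 held 35.1 reads in the anti-PD1 group, where background gives 49.8, and its value with background subtracted was 5.16. Genes of lysosomal cathepsins rose in 15 of 16 (median 1.0); Ctss, the protease that trims the invariant chain off MHC class II, had 729, 743 and 751 CPM in combination libraries, against 224, 231 and 247 CPM in anti-PD1 libraries, and Ctsb rose by 1.41 ± 0.0538.

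T cell genes were few in reads and higher in the combination group. The list held 1264 reads in the combination group, against 655 in the anti-PD1 group, where background alone would give 51.3 and 405 reads in the same order. Of 22 tested members 10 rose and none fell (median 0.57, and 2.0 with background subtracted). Trbc2, a constant segment of the T cell receptor beta chain, had 8.59, 9.58 and 7.92 CPM in combination libraries, against 0, 2.48 and 0 CPM in anti-PD1 libraries. Trac, the alpha chain constant segment, had 5.49, 6.14 and 6.43 CPM in combination libraries, against 2.44, 0.731 and 0.778 CPM in anti-PD1 libraries. The co-receptor gene Cd8a had 3.76, 4.603 and 3.35 CPM in combination libraries, against 0.697, 1.096 and 0.778 CPM in anti-PD1 libraries. For each of these 3 genes the groups did not overlap, and in anti-PD1 libraries Trbc2 and Cd8a held no more reads than background. Fold changes were 3.28 ± 0.493 for Trbc2, 2.13 ± 0.436 for Trac, 2.13 ± 0.535 for Cd8a and 2.504 ± 0.4504 for Cd3g, a chain of the CD3 complex (adjusted p from 0.000521 to 5.43e-07). With background subtracted they were 3.72, 2.93, 6.32 and 4.05. Single libraries weigh on these sizes: without anti-PD1 replicate 2 the estimate for Cd3g became 3.31 and that of Trbc2, then without a read in the anti-PD1 group, 7.67, and without anti-PD1 replicate 1 that of Trac became 2.96. Cd4 (0.54) and Foxp3 (-0.08), which mark helper and regulatory T cells and are named after their values were seen, were not called.

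Cytotoxic effector genes rose in 4 of 5 tested (median 1.58, and 3.46 with background subtracted). Gzma, a granzyme, had 8.97, 6.75 and 11.6 CPM in combination libraries, against 1.05, 0.731 and 0.778 CPM in anti-PD1 libraries, a fold change of 3.36 ± 0.418 (adjusted p = 1.67e-10). Gzmb had 5.27, 5.52 and 5.92 CPM in combination libraries, against 1.39, 1.46 and 2.72 CPM in anti-PD1 libraries, a fold change of 1.58 ± 0.396. Nkg7, a granule protein of T and natural killer cells, rose by 2.44 ± 0.455. In the anti-PD1 group Gzma held 7 reads, Gzmb 15 and Nkg7 8, where background gives 12.4, 11.8 and 7.87, and with background subtracted their values were 7.56, 3.46 and 4.801. The chemokine gene Ccl5 passed in the main test (0.93 ± 0.386, adjusted p = 0.0348), its groups overlapped, and the call was lost without combination replicate 3 (adjusted p = 0.222) or anti-PD1 replicate 2 (adjusted p = 0.336) and with DESeq2 size factors (adjusted p = 0.0613), while the estimate became 1.54 without anti-PD1 replicate 3. Of 9 natural killer cell genes 3 rose and none fell, where 24.6% and 10.5% of all genes did (median 0.401, and 1.93 with background subtracted). Beside Nkg7, Il2rb, a receptor chain for interleukin-2 and interleukin-15, rose by 1.56 ± 0.195. The third, the inhibitory receptor gene Klrc1, chosen after its values were seen, had 18 reads in the combination group and 3 in the anti-PD1 group, 4.63 times higher (95% counting interval 1.35 to 24.5), and its log2 value with background subtracted was 5.098. For the members not called, a change was not detectable at this depth.

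Antibody genes rose, while B cell genes as a list lay at background in anti-PD1 libraries. Of 16 tested genes of plasma cells and immunoglobulin constant regions 13 rose and none fell (median 1.21). Ighm (chr12:113418558-113422730), the constant region of IgM, had 1064, 1035 and 1077 CPM in combination libraries, against 161, 152 and 140.3 CPM in anti-PD1 libraries. Igkc, the kappa light chain constant region, had 275, 269 and 260.5 CPM in combination libraries, against 36.2, 31.3 and 25.6 CPM in anti-PD1 libraries. Jchain, which joins IgM and IgA into polymers, had 52.1, 55.9 and 56.2 CPM in combination libraries, against 5.92, 6.21 and 6.86 CPM in anti-PD1 libraries. Fold changes were 2.81 ± 0.0628, 3.098 ± 0.0838 and 3.096 ± 0.156 (adjusted p = 3.28e-51, 3.05e-46 and 4.85e-29), and Ighg2b, the IgG2b constant region, rose by 3.65 ± 0.247. Ighg2b held 22.1 reads in the anti-PD1 group, close to the 19.3 of background, and its value with background subtracted was 5.41. Constant regions share sequence, and how the shared reads were divided is not given. B cell genes held 382 reads in the combination group and 307 in the anti-PD1 group, where background gives 37.7 and 298 reads. The median of -1.47 over 9 tested members therefore stood on genes at background in anti-PD1 libraries. With background subtracted the median was 2.94, the value of Cd22. It was taken over the members that could still be fitted, so it cannot be set against -1.47. Of the 9 tested members 2 rose and none fell, where 24.6% and 10.5% of all genes did. A further 5 were lower but under 3 times background in the anti-PD1 group. Bank1, an adaptor of B cell receptor signalling, rose by 1.39 ± 0.246 (3.36 with background subtracted). Cd22, an inhibitory receptor of B cells, rose by 1.17 ± 0.239 (2.94 with background subtracted).

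Genes of antigen presentation rose in both classes. All 18 tested genes of MHC class I presentation were called higher (median 1.77). H2-K1 (chr17:33996017-34000347), a classical class I heavy chain, had 739, 767 and 764 CPM in combination libraries, against 115, 118 and 137 CPM in anti-PD1 libraries. Its fold change was 2.62 ± 0.0602 (adjusted p = 1.17e-50). The related heavy chain genes H2-Q6, H2-Q7 and H2-Q4 rose by 2.74 ± 0.152, 2.55 ± 0.125 and 2.28 ± 0.0775, and these copies may share reads. Of 10 MHC class II genes 9 rose and 1, H2-Oa, was not called (median 1.097), with H2-Eb1 at 497, 485 and 501 CPM in combination libraries, against 168, 180.1 and 199 CPM in anti-PD1 libraries. H2-Eb1 rose by 1.44 ± 0.0576, H2-Aa by 1.38 ± 0.05502 and H2-Ab1 by 1.36 ± 0.0582.

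Genes induced by interferons rose as well. Interferon gamma response genes were higher in 25 of 27 and lower in 1 (median 1.33), and type I interferon response genes higher in 21 of 23 and lower in none (median 1.15). Short DNA elements of different kinds carry these responses: the interferon-stimulated response element (ISRE), bound by factors of the IRF family, and the gamma-activated site (GAS). The ISRE letters GAAANNGAAA, searched on both strands of the 250 bases before the gene start in RefSeq promoters of GRCm38.p6, were found in 821 of 27025 promoters (3.04%), and the GAS letters TTCNNNGAA in 1940 (7.18%). Promoters were matched for 20 of the 29 interferon gamma genes, and 11 (55.0%) held the ISRE letters and 8 (40.0%) the GAS letters. Of 17 type I interferon genes matched, 7 (41.2%) held the ISRE letters and 2 (11.8%) the GAS letters. Of 16 MHC class I presentation genes matched, 3 (18.75%) held the ISRE letters and 1 (6.25%) the GAS letters. Of 13 macrophage genes 1 (7.69%) held the ISRE letters and 1 (7.69%) the GAS letters. Of 14 ribosomal protein genes 3 (21.4%) held the ISRE letters and 2 (14.3%) the GAS letters. A match is a description of the letters and not a binding site, and a promoter with both motifs was counted for each. The windows below, 100 bases each, belong to genes that rose and to Gbp5, which did not; they run 5′ to 3′ along the strand of the gene, with the match nearest the gene start in capitals.
Isg15, ISRE, chr4:156200830-156200929: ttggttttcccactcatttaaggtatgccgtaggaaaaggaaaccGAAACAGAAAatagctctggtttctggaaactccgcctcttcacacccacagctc
Oas1a, ISRE, chr5:120907526-120907625: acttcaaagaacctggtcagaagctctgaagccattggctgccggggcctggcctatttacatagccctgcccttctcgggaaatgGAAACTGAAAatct
Tgtp2, ISRE, chr11:49064228-49064327: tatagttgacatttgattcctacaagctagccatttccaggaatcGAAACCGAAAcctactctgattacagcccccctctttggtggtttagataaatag
Gbp5, ISRE, chr3:142496724-142496823: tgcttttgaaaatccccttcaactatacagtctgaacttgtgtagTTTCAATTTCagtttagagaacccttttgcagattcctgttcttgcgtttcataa
Gbp5, GAS, chr3:142496834-142496933: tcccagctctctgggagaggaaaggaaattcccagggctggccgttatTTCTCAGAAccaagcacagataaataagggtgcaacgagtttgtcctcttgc

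The genes behind these promoters moved as follows. Isg15, a ubiquitin-like protein, had 19.4, 23.3 and 23.3 CPM in combination libraries, against 3.83, 6.21 and 6.22 CPM in anti-PD1 libraries, a fold change of 2.02 ± 0.225 (adjusted p = 3.90e-12). Oas1a, a sensor of double-stranded RNA, had 18.9, 24.4 and 21.8 CPM in combination libraries, against 3.31, 2.08 and 2.94 CPM in anti-PD1 libraries, a fold change of 2.87 ± 0.263 (4.504 with background subtracted). Tgtp2, a GTPase that acts on vacuoles of intracellular parasites, had 74.9, 83.2 and 78.6 CPM in combination libraries, against 0, 16.4 and 24.7 CPM in anti-PD1 libraries. The anti-PD1 libraries disagreed on Tgtp2, which has a near-identical copy (Tgtp1): its fold change of 2.56 ± 0.486 became 1.97 without anti-PD1 replicate 1 and 3.31 without anti-PD1 replicate 3, and the DESeq2 Wald test did not call it (adjusted p = 0.0891). The related GTPase genes Iigp1, Gbp4 and Gbp8 rose by 2.21 ± 0.121, 2.13 ± 0.137 and 2.12 ± 0.188.

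Gbp5, a guanylate-binding protein that takes part in inflammasome assembly, was the 1 interferon gamma response gene that fell. It had 99.2, 92.1 and 102 CPM in combination libraries, against 409, 488 and 464 CPM in anti-PD1 libraries, a fold change of -2.21 ± 0.0659 (adjusted p = 3.71e-40). Its promoter holds both sets of letters, but so do those of Oas1a and Tgtp2, which rose, so holding both is not particular to Gbp5. The GAS letters TTCAAAGAA of Oas1a and TTCCAGGAA of Tgtp2 stand in small letters in their windows above. In the other groups it had 1611, 1821 and 1579 CPM in isotype control and 58.9, 59.3 and 59.4 CPM in anti-B7-H3 libraries, so its level followed the share of satellite-like reads across the 4 groups. Whether that share has a part in its level was not tested. Among the type I genes Irf7, the factor that amplifies the response, rose by 1.85 ± 0.205 and Ifi44 by 2.704 ± 0.386, though Ifi44 held only 13 reads in the anti-PD1 group, where background gives 20.1, and its value was 7.75 with background subtracted.

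**Figure D3:**
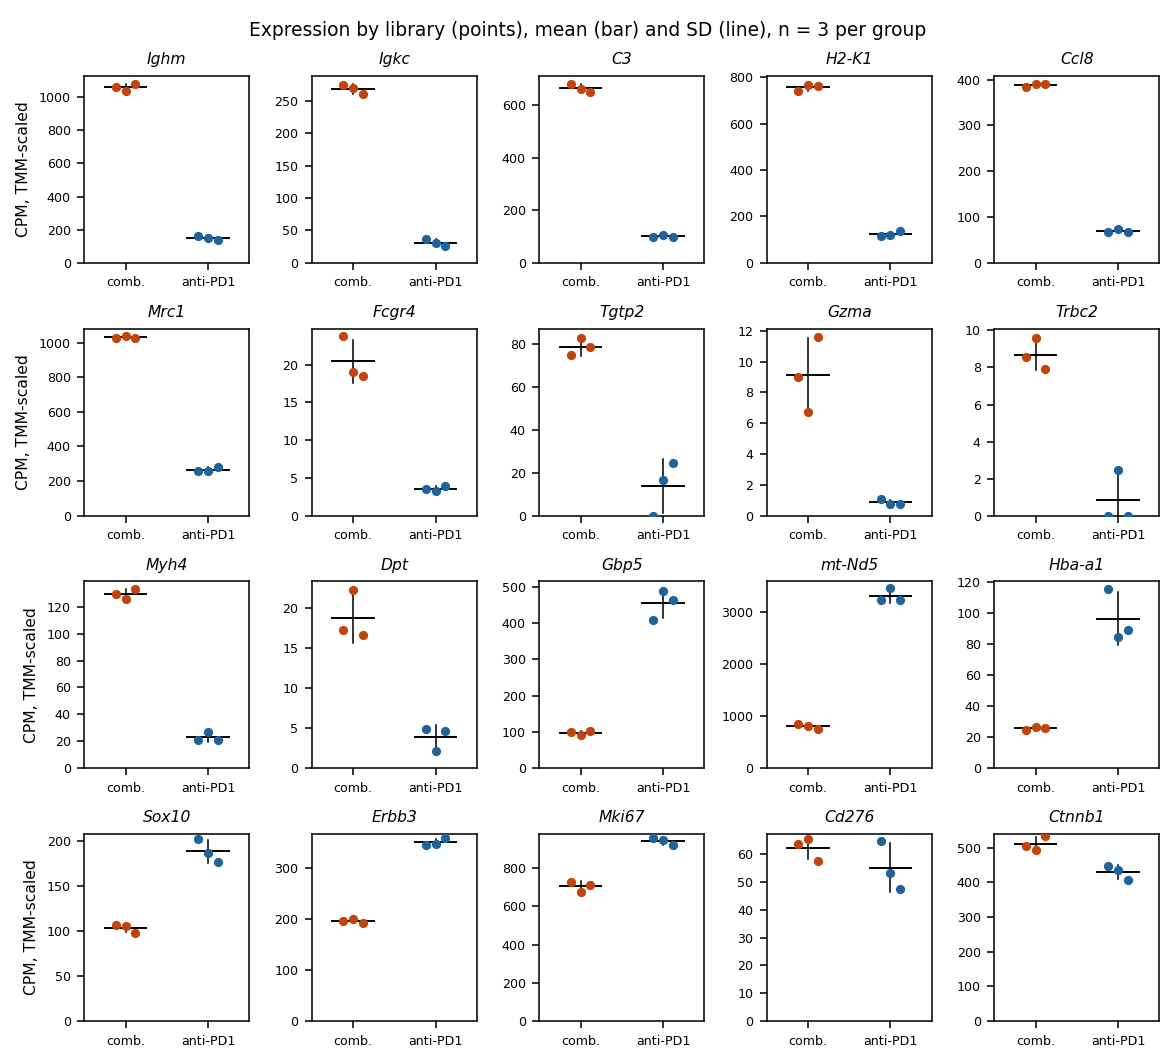
CPM per library (points), group mean (bar) and SD (vertical line) of 20 genes, with the combination group on the left of each panel and anti-PD1 on the right, 3 libraries each. The groups are separate in every panel but that of Cd276, with the 6 panels from Gbp5 to Mki67 lower in combination.

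The 12 largest rises, among genes of at least 10 CPM with separate groups, were mostly of these kinds. Beside Ighg2b, Igkc, Jchain, Ighm, Oas1a and H2-Q6 they were Apol9a (3.3), Cd300ld (3.29), Akap2 (3.03), Ifi205 (2.77), Tnni2 (2.75) and Apol9b (2.74). Cd300ld, a receptor of myeloid cells, had 11.6, 13.6 and 12.1 CPM in combination libraries, against 1.81, 1.18 and 0.778 CPM in anti-PD1 libraries. Ifi205, an interferon-inducible sensor of the Ifi200 family, had 55.8, 43.2 and 40.1 CPM in combination libraries, against 4.76, 5.68 and 9.89 CPM in anti-PD1 libraries. Apol9a and Apol9b are near-identical copies, so their separate values are uncertain. In the anti-PD1 group Akap2 held fewer reads than background (18.5, where background gives 43.7), and Cd300ld, Apol9a, Ighg2b and Oas1a held less than 1.5 times background. With background subtracted Akap2 stood at 8.62, Cd300ld at 5.15 and Apol9a at 4.99, so the sizes and the order of these rises are uncertain. Apol9a had 20.8, 25.995 and 16.3 CPM in combination libraries, against 2.003, 1.06 and 3.11 CPM in anti-PD1 libraries.

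Stromal lists had smaller medians, and part of their members did not pass. Fibroblast and collagen genes were higher in 15 of 20 (median 0.49), but with scaling over genes well above background 12 rose and 2 fell (median 0.302). Postn, periostin, had 1863, 1879 and 1858 CPM in combination libraries, against 1098, 1070.2 and 1118 CPM in anti-PD1 libraries, a fold change of 0.77 ± 0.0533. Larger changes belonged to Dpt, dermatopontin, with 17.2, 22.3 and 16.6 CPM in combination libraries, against 4.88, 2.19 and 4.67 CPM in anti-PD1 libraries (2.25 ± 0.246), and to Fap, the fibroblast activation protein, with 43.8, 33.3 and 42.7 CPM in combination libraries, against 10.5, 12.4 and 13.6 CPM in anti-PD1 libraries (1.72 ± 0.163). Endothelial genes rose in 5 of 13, where 24.6% of all genes rose (median 0.16, and -0.02 under that scaling). Pecam1 (CD31) rose by 1.15 ± 0.111, Cdh5, the cadherin of vessel walls, by 0.94 ± 0.124 and Lyve1, a marker of lymphatic vessels that macrophages also carry, by 1.96 ± 0.227. Among pericyte and smooth muscle genes 5 of 8 rose and 1 fell (median 0.57). Acta2, smooth muscle actin, had 139, 128 and 124 CPM in combination libraries, against 82.2, 67.2 and 72.3 CPM in anti-PD1 libraries, whereas Cspg4, the NG2 proteoglycan that melanoma cells also express, had 587, 569.8 and 614 CPM in combination libraries, against 748, 690.2 and 739 CPM in anti-PD1 libraries. Genes of matrix metalloproteinases and their inhibitors rose in 10 of 13 and fell in 2 (median 0.61). The collagenase Mmp13 rose by 2.17 ± 0.0961 and the macrophage elastase Mmp12 by 1.99 ± 0.0669. The stromelysins Mmp11 and Mmp10 fell by 1.13 ± 0.179 and 0.86 ± 0.183, and neither was called when 10 times background was required.

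Genes of other tissues also separated the groups. Skeletal muscle genes rose in 12 of 16 and fell in 1 (median 1.39), and their sum was 1503 ± 28.9 CPM in combination libraries and 1014 ± 20.2 CPM in anti-PD1 libraries. Myh4, the fast myosin heavy chain, had 129, 125 and 133 CPM in combination libraries, against 20.9, 26.8 and 21.2 CPM in anti-PD1 libraries, a fold change of 2.498 ± 0.1103 (adjusted p = 3.61e-32). Tnnt3, fast troponin T, had 21.98, 17.2 and 18.8 CPM in combination libraries, against 2.09, 2.56 and 5.05 CPM in anti-PD1 libraries, and Ckm, muscle creatine kinase, had 26.9, 29.8 and 24.2 CPM in combination libraries, against 4.18, 7.31 and 4.28 CPM in anti-PD1 libraries. All 3 were near 0 in anti-B7-H3 libraries, where Myh4 had no read, and the part of muscle tissue in the other results was not tested. Neb, the giant filament protein nebulin, moved the other way, with 267, 258 and 253 CPM in combination libraries, against 509, 485 and 513 CPM in anti-PD1 libraries, and its highest values were in isotype control libraries (820.2, 609.8 and 789.9 CPM). Of 12 keratinocyte genes tested, 9 were lower but under 3 times background in the anti-PD1 group and so not called, and the 3 that fell were the keratin gene Krt14, Flg (filaggrin) and Sfn. Krt14 had 0, 0 and 1.25 CPM in combination libraries, against 16.9, 23.4 and 23.03 CPM in anti-PD1 libraries, and its fold change of -5.36 ± 0.437 became -8.88 without combination replicate 3, the only combination library with a read. Red blood cell genes fell in 4 of 6 (median -1.89); the alpha globin gene Hba-a1 had 24.9, 26.8 and 26.1 CPM in combination libraries, against 116, 84.7 and 88.9 CPM in anti-PD1 libraries and the beta globin gene Hbb-bs had 25.9, 22.2 and 27.7 CPM in combination libraries, against 77.3, 72.5 and 77.7 CPM in anti-PD1 libraries, with fold changes of -1.905 ± 0.135 and -1.58 ± 0.12. Globin copies may share reads.

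Genes of the tumour's own lineage did not move as one. Sox10, the transcription factor that defines the neural crest lineage of melanoma, had 107, 105 and 97.5 CPM in combination libraries, against 202, 186 and 177 CPM in anti-PD1 libraries, a fold change of -0.87 ± 0.0716 (adjusted p = 1.01e-17). Erbb3, a receptor for neuregulins, had 196, 199.9 and 192 CPM in combination libraries, against 344, 346 and 357 CPM in anti-PD1 libraries, a fold change of -0.83 ± 0.0576. Foxd3, a neural crest factor, fell by 0.81 ± 0.154. Of 8 Schwann and neural crest genes tested, which include Erbb3 and Foxd3, 3 fell and none rose (median -0.29). Of 13 melanocyte lineage and pigment genes 3 fell and 2 rose, where 10.5% and 24.6% of all genes did (median -1.195, and -0.07 with background subtracted). Tyr, tyrosinase, had 8.97, 7.98 and 10.6 CPM in combination libraries, against 23, 21.6 and 27.996 CPM in anti-PD1 libraries, and Gpnmb, a melanosome and macrophage protein, had 15.4, 19.3 and 12.5 CPM in combination libraries, against 40.4, 29.96 and 36.3 CPM in anti-PD1 libraries. Ednrb, the endothelin receptor, rose by 1.03 ± 0.2699 and Rab27a, which moves melanosomes, by 1.31 ± 0.399. The pigment genes Pmel, Dct, Tyrp1 and Mlana, named as the usual markers of the labelled tumour type, held 4, 4, 2 and 1 reads over the combination group and lay under 3 times background in the anti-PD1 group, while Sox10 stood well above background in both. Of 16 genes listed as Wnt and beta-catenin targets 3 fell and 1 rose, where 10.5% and 24.6% of all genes did (median -0.37). That list also holds parts of the pathway itself: Ctnnb1 was the 1 that rose, and Apc was among the 3 that fell (-0.22 ± 0.0571). Ccnd1, cyclin D1, had 265, 261 and 261 CPM in combination libraries, against 329, 350.4 and 353 CPM in anti-PD1 libraries. Znrf3, a ligase that removes Wnt receptors, fell by 0.57 ± 0.154. Ctnnb1, beta-catenin itself, had 506, 494 and 533 CPM in combination libraries, against 446, 435 and 407 CPM in anti-PD1 libraries; its fold change of 0.25 ± 0.0529 was 0.06 (adjusted p = 0.261) when scaling used genes well above background; after subtraction of background it was -0.04.

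Most mitosis genes fell slightly. Of 22 members 13 fell and none rose (median -0.204), and 18 fell with scaling over genes well above background (median -0.39). Mki67, the proliferation antigen, had 729.8, 676 and 715 CPM in combination libraries, against 960.5, 951 and 921 CPM in anti-PD1 libraries. Kif11, a motor of the spindle, had 152, 138 and 149.8 CPM in combination libraries, against 195, 187 and 213 CPM in anti-PD1 libraries. Fold changes were -0.42 ± 0.0505 and -0.43 ± 0.0675, and those of Cenpf and Plk1 were -0.42 ± 0.0561 and -0.42 ± 0.103. Of DNA replication genes 1 of 18, the maintenance methyltransferase Dnmt1, fell (-0.28 ± 0.05801), where 10.5% of all genes did. The list median of -0.08 was close to the -0.06 of all genes. Under that other scaling 10 of 18 fell, where 2877 of 16088 genes did. The medians were then -0.26 for the list and -0.24 for all genes.

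Mitochondrially encoded genes and nuclear genes of the same respiratory complexes moved in opposite directions. All 13 mitochondrially encoded protein genes fell (median -1.01), and by unequal amounts, from -0.14 for mt-Co1, a core subunit of cytochrome oxidase, to -2.04 for mt-Nd5, a subunit of complex I. mt-Nd5 had 841, 817 and 751 CPM in combination libraries, against 3234, 3450.0 and 3224 CPM in anti-PD1 libraries, a fold change of -2.04 ± 0.0583. mt-Nd2 had 344, 336 and 313 CPM in combination libraries, against 1185, 1223 and 1336 CPM in anti-PD1 libraries, a fold change of -1.91 ± 0.0573. Across the 4 groups 11 of the 13 held their highest mean in isotype control, then anti-PD1, then combination libraries, with anti-B7-H3 at or below those, which is the order of the satellite-like share, and a part of that share in the result was not tested. Of 19 nuclear genes of the respiratory chain 17 rose and none fell (median 0.47). Cox5a, a cytochrome oxidase subunit, had 58.1, 52.5 and 55.6 CPM in combination libraries, against 35.5, 33.1 and 30.3 CPM in anti-PD1 libraries, a fold change of 0.74 ± 0.114, and Uqcrc2, of complex III, rose by 0.66 ± 0.104. With scaling over genes well above background 8 of the 19 rose (median 0.28) and all 13 mitochondrially encoded genes still fell (median -1.199).

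**Figure D4:**
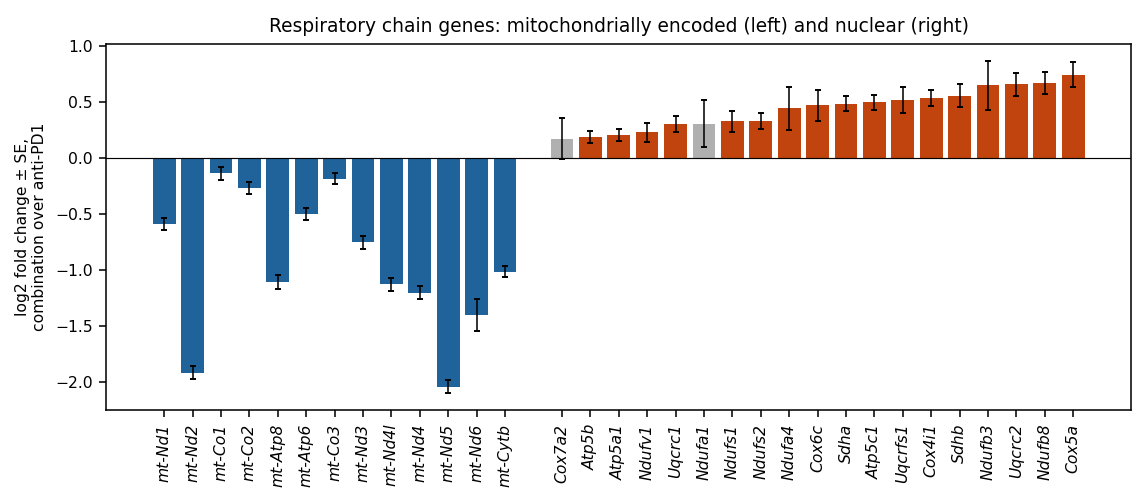
Log2 fold change (combination over anti-PD1) with its standard error for 13 mitochondrially encoded genes in genome order (left) and 19 nuclear respiratory chain genes (right), with genes not called in grey. The mitochondrially encoded genes lie between -0.14 and -2.04, and the nuclear genes lie above 0.

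Ribosomal protein genes rose in 22 of 22 by a small amount (median 0.38), which shrank to 0.19 with 18 called under the other scaling and to 0.09 with background subtracted. Rps3 had 521, 513 and 513 CPM in combination libraries, against 305, 280.4 and 304 CPM in anti-PD1 libraries, a fold change of 0.798 ± 0.0562. Hypoxia and glycolysis genes rose in 18 of 22 and fell in 2 (median 0.48). Under the other scaling 16 rose and 3 fell (median 0.29), and with background subtracted the median was 0.19. The glycolytic enzymes Pfkp and Pgk1 rose by 0.88 ± 0.06203 and 0.698 ± 0.0581, and Car9, the carbonic anhydrase most tied to hypoxia, fell by 0.43 ± 0.103. Car9 had 55.8, 54.6 and 51.2 CPM in combination libraries, against 66.2, 70.6 and 81.3 CPM in anti-PD1 libraries. Genes of heat shock and the unfolded protein response rose in 13 of 16 (median 0.54), and in 9 under the other scaling (median 0.35). With background subtracted their median was 0.33. The chaperone Hspa5 (BiP) had 939.9, 943 and 932 CPM in combination libraries, against 488, 453 and 519 CPM in anti-PD1 libraries.

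The 12 largest falls were of genes low in combination libraries, most of them a few times above background in anti-PD1 libraries. Krt6a, a keratin of stressed skin, had 0 reads in the combination group and 136 in the anti-PD1 group, at least 58.8-fold lower with the floor set at 3 reads for the whole group. Fam196a had 0 reads in the combination group and 97 in the anti-PD1 group, at least 41.9-fold lower. Slc24a5, a cation exchanger of melanosomes, had 3 reads in the combination group and 228 in the anti-PD1 group, a scaled level 98.5 times lower (95% counting interval 33.3 to 481). All 3 of those reads were in combination replicate 2, and the fitted log2 fold change of -6.42 became -9.31 without it. Gp1ba, a platelet receptor chain, had 1 read in the combination group and 116 in the anti-PD1 group, 150.4 times lower (interval 26.5 to 5990). Background gives 34.9 reads in the anti-PD1 group. The fitted log2 fold change of Gp1ba, -6.69, became -8.31 without combination replicate 3. Without anti-PD1 replicate 2 it was -6.47 and the call was lost on the background requirement. Muc6, a gastric mucin, had 0.289, 0.614 and 1.03 CPM in combination libraries, against 127, 144 and 137 CPM in anti-PD1 libraries. Rbm4b, an RNA-binding protein, had 4.77, 7.54 and 6.66 CPM in combination libraries, against 158, 163 and 145 CPM in anti-PD1 libraries, a fold change of -4.61 ± 0.146. Col4a6, a basement membrane collagen chain, had 1.45, 1.84 and 4.899 CPM in combination libraries, against 102, 104 and 115 CPM in anti-PD1 libraries; its fold change of -5.22 ± 0.181 became -5.97 without combination replicate 3. Krt14, Obox3, Kcnk3, Rtp3 and Nfe2l3 complete the 12, and Obox3 (-5.05) became -5.89 without combination replicate 2. Expressed in reads over background in the anti-PD1 group, Krt6a, Fam196a, Slc24a5, Gp1ba, Muc6, Krt14, Obox3, Kcnk3, Rtp3 and Nfe2l3 lay between 3 and 10 times, and only Rbm4b and Col4a6 above 10 times. Across the 4 groups 5 of the 12 had this order of group means: isotype control above anti-PD1, anti-PD1 above combination, and anti-B7-H3 at or below combination, as did 575 of the 1696 called falls (33.9%), and 5 of the 12 largest rises and 1789 of 3957 called rises (45.2%) had the reverse order. These orders share the libraries compared and were not tested.

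**Figure D5:**
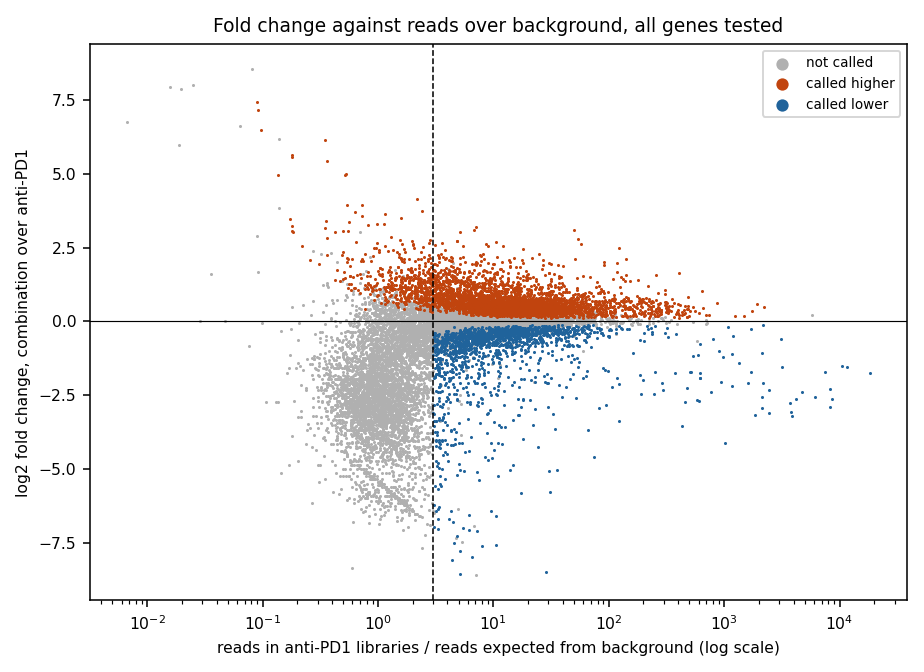
Log2 fold change (combination over anti-PD1, vertical axis) of 16088 genes against their reads in anti-PD1 libraries as a multiple of the reads expected from background (log scale), coloured by call, with a dashed line at 3 times. Genes to the left of the line with lower levels in combination are not called, and called falls begin at the line.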

How the data were processed

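RNA of whole tumours was sequenced in 12 libraries, 3 in each of 4 groups, and 6 libraries are compared here. Per the labels' protocols, ribosomal RNA was removed from total RNA before library construction (Illumina TruSeq). The submitters' processing notes name FastQC 0.11.8 and GRCm38. The sources used here do not give the program behind the estimates or its use of strand. Per the file headers, the authors deposited for each transcript its length, effective length, TPM and estimated count. The deposited estimated counts were used, and the TPM values, shares that move with the satellite-like reads, were not. The files hold 58083 transcripts, 87.3% with lengths that are multiples of 3 (coding lengths); 57473 matched GENCODE M21 and 610 (1.05%) did not.

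Counts were summed per gene and rounded, and 12 satellite-like genes were left out. Background per library was the reads per kb of 1133 olfactory receptor genes times a gene's longest coding length. edgeR 4.0.16 in R 4.3.3 (TMM, filterByExpr, quasi-likelihood test, robust) was fitted to all 12 libraries with 1 mean per group. Calls needed a Benjamini-Hochberg adjusted p under 0.05 over 16088 genes and at least 3 times background in the higher group. DESeq2 1.42.0 was an alternative. The fit was tested on simulated counts in which both groups had the same background. That test therefore cannot show how the difference in background acts on the calls.

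The 41 lists, the members and the rule for named genes were chosen with earlier results of these data known. Named are the antibody targets with their ligands, Cd47, Sirpa and Ctnnb1, then the 12 largest called changes each way (at least 10 CPM, groups apart, no predicted or variable-segment names), and from each list at most 4 called members a direction with at least 30 reads. A few genes that the rule names are not reported here. Same-numbered libraries did not deviate together. Counting intervals (95%) and floors (3 reads over a group) cover counting error only. Promoter letters come from RefSeq's GRCm38.p6 table.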

Additional observations from a re-analysis of the deposited data

How the results depend on the processing

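Rises numbered 3957, and 2447 with background subtracted, 2481 with scaling over genes at least 10 times background, 837 at 2-fold or more and 2118 when only the 8809 genes at least 10 times background were tested (an alternative added after the data were seen). Falls numbered 1696, and 5127 with no background requirement, 852 at 10 times background, 2877 with scaling over genes well above background and 504 at 2-fold or more; these alternatives change which genes may be called or how libraries are scaled, and other causes were not tested. Leaving out 1 library gave 3714 to 3924 rises and 1431 to 1524 falls. With a replicate block 4120 rose and 1581 fell; the correlations of same-numbered libraries were 0.069, -0.235 and -0.041, so the numbers were not taken as pairs. Without 3 olfactory receptor genes in the background 2044 fell (added after the data were seen). The other alternatives stayed within 1.5 times of both counts. Of the log2 fold changes of named genes under these alternatives, 4020 kept their direction and side of the threshold, 137 lost the call, 1 gained it and 4 reversed: Cd276 at -0.0936, -0.0241 and -0.0243 with background subtracted, with scaling over genes well above background and with only those genes tested, and Ctnnb1 at -0.0368 with background subtracted. List medians moved by more than the spread between libraries in 356 of the values and by less in 585. Genes with few reads in anti-PD1 libraries are limited by background, which is 6.48% to 7.39% of reads there. When 10 times background was required, 21 named genes lost their call, among them Ccl19, Mmp11, Mmp10, Tyr, Egr3, Sfn, Csf3r and Znrf3.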

Other observations

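Immediate early response genes went both ways, with 5 of 16 higher and 4 lower, beside 24.6% and 10.5% of all genes (median 0.14, and -0.04 with scaling over genes well above background). Dusp1, a phosphatase that dampens MAP kinases, had 23.3, 18.2 and 17.1 CPM in combination libraries, against 12.5, 10.2 and 5.44 CPM in anti-PD1 libraries, while Egr3, a transcription factor induced by receptor signalling, had 6.36, 7.98 and 6.18 CPM in combination libraries, against 18.5, 20.8 and 15.6 CPM in anti-PD1 libraries. Fold changes were 1.03 ± 0.206 and -1.42 ± 0.222, and Egr1 fell by 0.502 ± 0.106. Adipocyte genes rose in 3 of 10 and fell in none, beside 24.6% and 10.5% of all genes. Their median was -0.25, and 0.15 over the members still fitted with background subtracted. Fabp4, the fatty acid binding protein of fat cells and macrophages, had 6.36, 7.06 and 9.78 CPM in combination libraries, against 3.14, 2.19 and 1.56 CPM in anti-PD1 libraries.

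The olfactory receptor genes that set the background are not all silent. Olfr93 alone held 52.7% of olfactory receptor reads in the combination group and 25.7% in the anti-PD1 group. The background used is therefore above that of the other olfactory receptor genes, and more so in combination libraries. It is not an upper limit: vomeronasal and taste receptor genes held 0.721 to 0.940 reads per kb in combination libraries and 5.27 to 5.57 in anti-PD1 libraries. Olfactory receptor genes held 0.626 to 0.710 and 5.06 to 5.54. On a scaled level per kb, olfactory receptor genes had a log2 ratio of combination over anti-PD1 of -3.36, and of -4.06 without Olfr93, Olfr1055 and Olfr1564.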
